A study of Mus musculus with 36 samples.

Results

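The Kruppel-like factor genes Klf2, Klf3, Klf4, Klf5, Klf6 and Klf9 were followed by RNA-seq through 36 libraries of mouse embryonic stem cells (ESCs) and epiblast-like cells (EpiLCs). The 6 genes were chosen by symbol and matched to Ensembl identifiers through the GRCm38 annotation, out of 55401 genes in the count files. ESCs were kept with serum, LIF and the 2i inhibitors CHIRON99021 at 3 μM and PD0325901 at 1 μM, which block GSK3 and MEK. EpiLCs were made from ESCs in 2 days on fibronectin with activin A at 20 ng/ml, bFGF at 12 ng/ml and 1% Knockout Serum Replacement. All lines are labelled C57BL/6, and each of the 12 groups held 3 libraries.

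J2WT is the WT line matched to J2KO, which lacks JARID2, a defining subunit of the Polycomb repressive complex PRC2.2. PclWT is the WT line matched to TKO, which lacks PHF1, MTF2 and PHF19, the 3 Polycomb-like subunits of PRC2.1, and to QKO, which lacks those and JARID2. These 5 lines were measured at both stages. A further WT line and Pcgf2/4 KO, which lacks the PRC1 subunits PCGF2 and BMI1 (PCGF4), were measured as EpiLCs alone. Each genotype is 1 line, and nothing in the labels says that replicates were separate cultures, so p-values reflect only how far these libraries differ among themselves, a spread that can be technical. J2WT and PclWT also come from different laboratories, so the mutants were compared with the WT line they were matched to.

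Kruppel-like factors bind GC-rich and CACCC-type DNA through 3 C2H2 zinc fingers at the C terminus. Klf2, Klf4 and Klf5 encode activators of the naive pluripotency network. LIF signalling through STAT3 sustains Klf4 and Klf5, inhibition of MEK favours Klf2, and the naive factors are known to decline once ESCs leave 2i and LIF for activin and FGF. Klf3 encodes a factor best known as a repressor that recruits CtBP. Klf6 encodes a widely expressed factor, and Klf9 a hormone-responsive factor found in many tissues. PRC2 methylates histone H3 at lysine 27, and canonical PRC1 binds that mark, so loss of either is of interest for genes that are turned down when ESCs become EpiLCs.

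All 6 genes are protein-coding. Klf2 (ENSMUSG00000055148) spans chr8:72319033-72321656 on the plus strand of GRCm38, Klf3 (ENSMUSG00000029178) chr5:64803388-64832901 (plus), Klf4 (ENSMUSG00000003032) chr4:55527143-55532466 (minus), Klf5 (ENSMUSG00000005148) chr14:99298691-99315036 (plus), Klf6 (ENSMUSG00000000078) chr13:5861482-5870394 (plus) and Klf9 (ENSMUSG00000033863) chr19:23141226-23168134 (plus). No exon of the others overlaps another gene, while an exon of Klf3 overlaps the antisense transcript Gm20033 for a short stretch that the unstranded libraries cannot separate. Every one of the 6 genes passed the filter on low counts in every comparison, and the lowest count in any library was 48, for Klf4.

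Promoter sequence was taken from RefSeq (GRCm38.p6, 250 bases before to 50 after the start), which gave a window for 5 of the 6 genes. Those of Klf2, Klf4 and Klf9 are printed, since Klf4 varied most among the 6 genes, Klf9 varied least and Klf2 changed in opposite directions between mutants. Capitals mark a GC box (GGGCGG) or a CACCC box (CACCC) on either strand, and overlapping matches run together. The windows are chr8:72318812-72319111 (plus strand), chr4:55532426-55532725 (minus strand) and chr19:23140976-23141275 (plus strand).
Klf2: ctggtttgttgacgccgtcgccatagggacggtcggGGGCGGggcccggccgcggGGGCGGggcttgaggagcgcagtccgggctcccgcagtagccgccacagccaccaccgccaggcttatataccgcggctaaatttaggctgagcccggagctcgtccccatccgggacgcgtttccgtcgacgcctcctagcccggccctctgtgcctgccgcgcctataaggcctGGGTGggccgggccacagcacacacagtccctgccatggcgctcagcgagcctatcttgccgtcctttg
Klf4: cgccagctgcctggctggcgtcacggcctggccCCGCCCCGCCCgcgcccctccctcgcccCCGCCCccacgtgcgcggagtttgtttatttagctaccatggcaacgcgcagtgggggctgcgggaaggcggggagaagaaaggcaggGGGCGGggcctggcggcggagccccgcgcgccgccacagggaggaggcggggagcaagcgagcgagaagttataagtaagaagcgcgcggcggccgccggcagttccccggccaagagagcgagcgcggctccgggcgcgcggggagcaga
Klf9: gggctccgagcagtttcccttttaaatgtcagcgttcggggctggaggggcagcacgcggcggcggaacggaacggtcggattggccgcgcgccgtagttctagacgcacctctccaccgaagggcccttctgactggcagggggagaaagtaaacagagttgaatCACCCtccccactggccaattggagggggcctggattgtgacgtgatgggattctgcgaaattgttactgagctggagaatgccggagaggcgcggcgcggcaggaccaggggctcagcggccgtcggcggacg
The Klf2 window held 2 GC boxes and 1 CACCC box, that of Klf4 held 4 and 0, and that of Klf9 held 0 and 1. Over all 32817 windows of the same length, 35.63% held a GC box and 57.52% a CACCC box. These promoters were rich in CpG, with 32 CpG dinucleotides in the window of Klf2, 29 in Klf3, 40 in Klf4, 23 in Klf6 and 28 in Klf9 against a median of 7 over all windows. A STAT site (TTCNNNGAA, either strand, 8.29% of windows) was found 1 time in Klf9 and 0 times in the other 4 windows, and an ESRRB site (TCAAGGTCA, either strand, 0.42% of windows) in none of the 5. A match describes these letters and shows no binding.

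The libraries held 6784578 to 18026492 counts assigned to genes, with a median of 10472704. In most pairs of replicates at most 245 of 13365 genes differed by over 2-fold, but PclWT EpiLC replicate 1 differed from replicates 2 and 3 in 1756 and 1978 genes, and its values are therefore given apart where they decide a result. rRNA genes took 4.28% of counts in QKO EpiLC replicate 2, and leaving that library out changed no call on the 6 genes. Their share was 2.085% in QKO ESC replicate 2 and 1.24% in PclWT ESC replicate 1. In PclWT EpiLC replicate 1 it was 1.40%, against 0.406% and 0.372% in replicates 2 and 3. Reads not assigned to a gene made up 28.8% in PclWT EpiLC replicate 1, against 23.7% and 24.0%. The knocked-out genes were read first. Mtf2 averaged 36.7 to 44.3 CPM, counts relative to library size, in TKO and QKO cells against 419 in PclWT ESCs and 223 in PclWT EpiLCs, and Phf1 averaged 0.123 to 0.595 CPM against 8.06 and 7.80. Phf19 was low in every one of these groups, at 1.25 CPM in TKO and 0.480 in QKO against 1.67 in PclWT ESCs, and at 2.43 in TKO and 0.990 in QKO against 3.04 in PclWT EpiLCs. Jarid2 averaged 411 CPM in J2KO against 457 in J2WT ESCs and 508 against 769 in EpiLCs, 395 in QKO against 512 in PclWT ESCs, and 492 in QKO against 386 in PclWT EpiLCs. Pcgf2 was at 64.6 CPM in Pcgf2/4 KO and 59.0 in WT EpiLCs, and Bmi1 at 23.0 and 21.9. The knocked-out parts of Phf19, Jarid2, Pcgf2 and Bmi1 are not given in the sources used here, so counts over the whole gene cannot check those labels, and groups are named by their labels throughout.

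Stage markers followed the labels. The summed level of 12 naive network genes other than Klf genes, such as Nanog, Esrrb and Tfcp2l1, was 4799 to 5031 CPM in J2WT ESCs and 649 to 659 in J2WT EpiLCs, and 3565 to 3684 against 321 to 388 in PclWT. For 10 formative genes, such as Fgf5, Otx2 and Dnmt3b, it rose from 424 to 437 CPM in J2WT ESCs to between 4317 and 4412 in EpiLCs. PclWT EpiLCs stood lower, at 1130 to 1311 CPM against 423 to 447 in PclWT ESCs. In such bulk libraries, fewer cells of a type and less RNA per cell cannot be told apart.

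**Figure D1:**
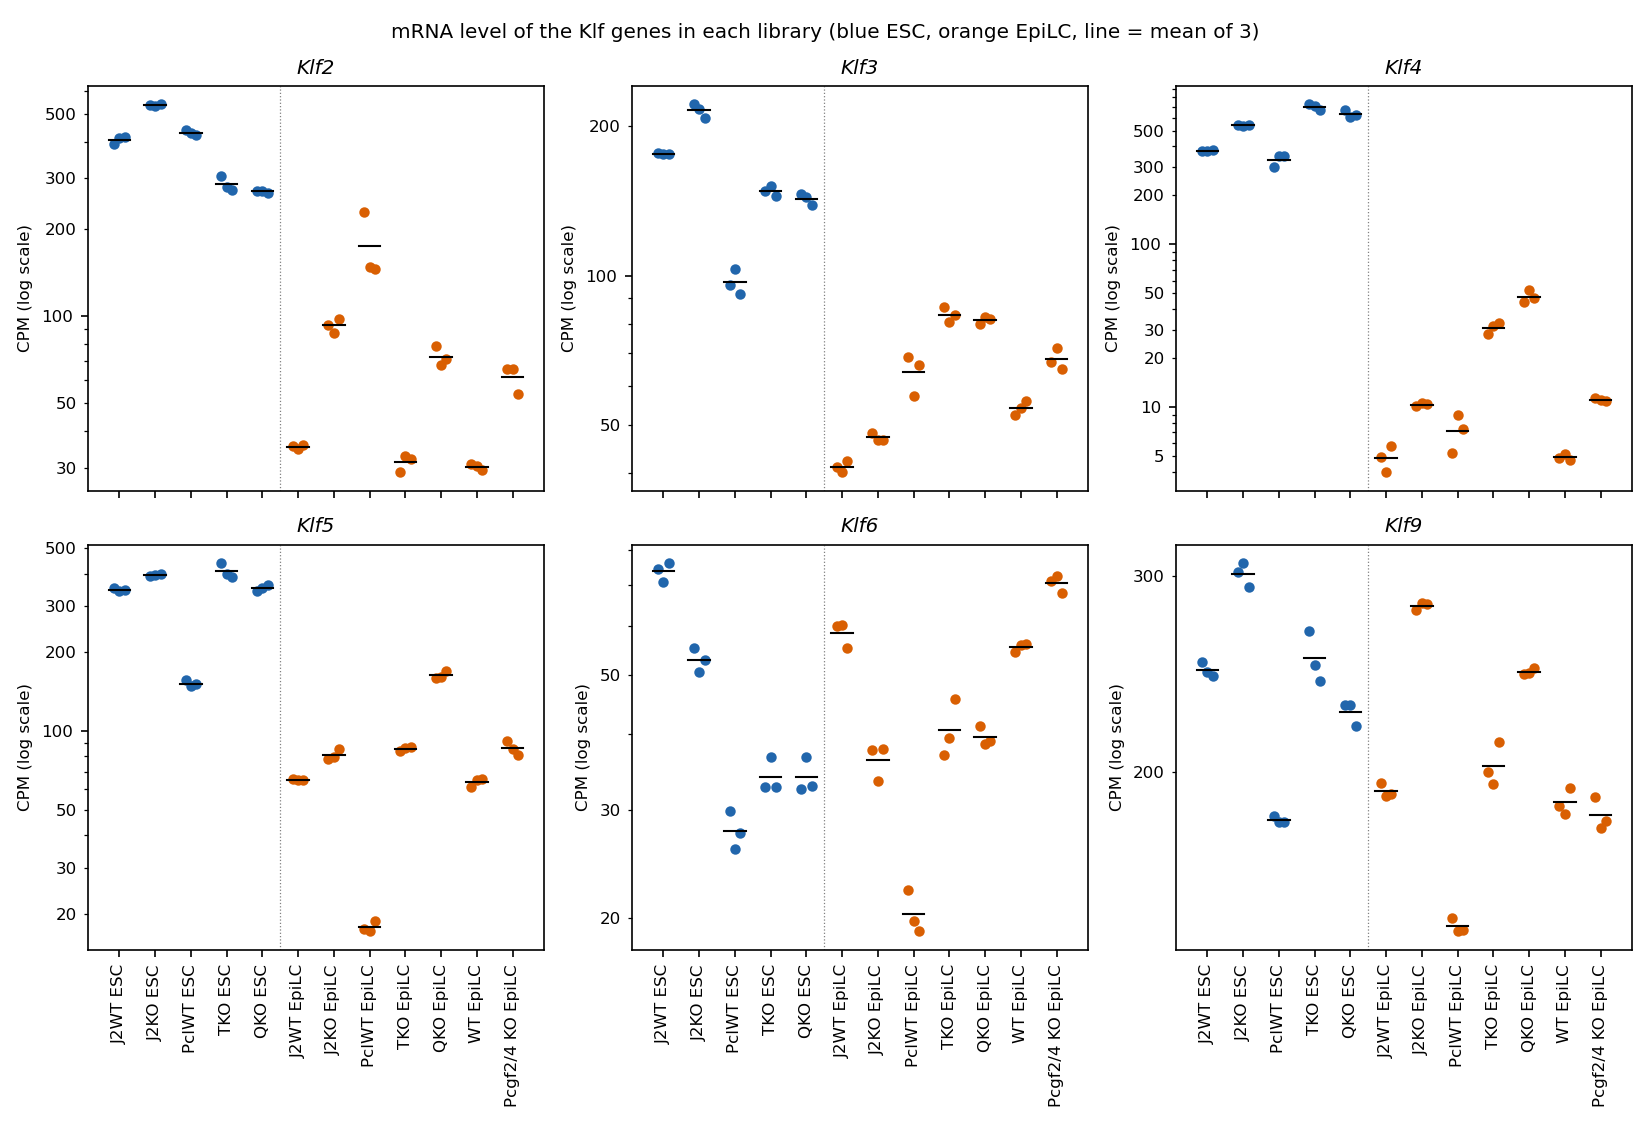
Level of each Klf gene in CPM (log axis) in every library, with 12 groups on the horizontal axis. Each point is 1 library, blue for ESC and orange for EpiLC, and each black line is the mean of 3. For Klf4, ESC libraries lie between 298 and 725 CPM and EpiLC libraries between 4.0 and 52.2, while for Klf9 all 36 libraries lie between 144 and 308 CPM.

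Levels are in CPM, with TMM scaling across the 36 libraries. The 6 genes varied to very different degrees. Between the highest and the lowest group mean, Klf4 spanned 143-fold, Klf5 22.9-fold, Klf2 17.7-fold, Klf3 5.23-fold, Klf6 3.63-fold and Klf9 2.07-fold, as the plot of levels by library shows. Klf2, Klf3 and Klf4 were higher in each of the 5 ESC groups than in each of the 7 EpiLC groups. Klf5 broke that order once, since QKO EpiLCs (164 ± 5.26 CPM, SD, n = 3) lay above PclWT ESCs (152 ± 4.17), with no library shared. Klf6 and Klf9 were not ordered by stage.

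For Klf2, the order ran from J2KO ESCs (536 ± 2.57 CPM) to WT EpiLCs (30.2 ± 0.685), and 10 of 11 neighbouring groups were separated library by library, all but TKO and WT EpiLCs. Klf4 ran from TKO ESCs (701 ± 25.8) to J2WT EpiLCs (4.89 ± 0.880), with an overlap of libraries only between WT and J2WT EpiLCs. Klf3 ran from J2KO ESCs (215 ± 6.79) to J2WT EpiLCs (41.2 ± 1.07), and 8 of 11 neighbours were separated. The overlaps were between TKO and QKO ESCs, TKO and QKO EpiLCs, and Pcgf2/4 KO and PclWT EpiLCs. Klf5 ran from TKO ESCs (408 ± 26.3) to PclWT EpiLCs (17.8 ± 0.863), with 6 of 11 neighbours separated. Klf6 was highest in J2WT ESCs (73.8 ± 2.61) and Pcgf2/4 KO EpiLCs (70.5 ± 2.28), whose libraries overlapped, and lowest in PclWT EpiLCs (20.3 ± 1.67). Klf9 ran from J2KO ESCs (301 ± 7.30) to PclWT EpiLCs (145 ± 2.22). For each of Klf6 and Klf9, 5 of 11 neighbours were separated.

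**Figure D2:**
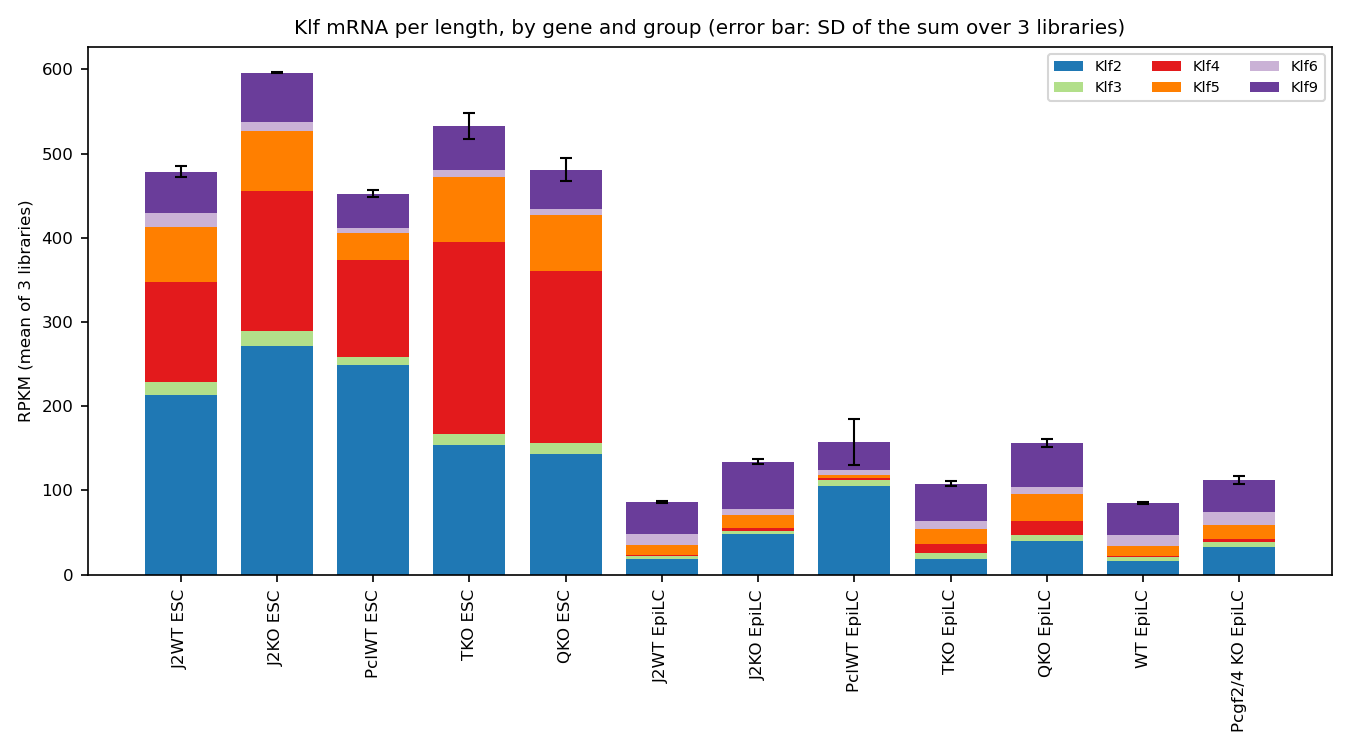
Summed level per length (RPKM, mean of 3 libraries) of the 6 Klf genes in the 12 groups, stacked by gene, with the SD of the sum as the error bar. The sums lie between 452 and 596 RPKM in ESCs and between 84.5 and 158 in EpiLCs, where Klf4 becomes a thin band.

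Compared per length, as RPKM over the union of exons, the make-up of Klf mRNA changed with stage. The 6 genes summed to 479 ± 6.10 RPKM in J2WT ESCs and 86.0 ± 1.34 in J2WT EpiLCs. Klf2, Klf4 and Klf5 together gave 83.0% ± 0.361 of that sum in ESCs and 36.9% ± 0.586 in EpiLCs. In J2WT ESCs the order of levels per length was Klf2, Klf4, Klf5, Klf9, Klf6 and Klf3, and in J2WT EpiLCs Klf9 came first, with 44.2% of the sum, and Klf4 last, with 1.78%. PclWT EpiLCs differed, as Klf2 alone held 67.0% of a sum of 158 ± 27.1 RPKM. Against the matched WT line, the sum was higher in J2KO EpiLCs (134 ± 3.17) and in Pcgf2/4 KO EpiLCs (112 ± 4.43 against 84.5 ± 1.22), and lower in TKO EpiLCs (108 ± 3.27). The TKO sum was nevertheless above those of J2WT and WT EpiLCs, so its direction turned with the WT line. Klf2 stood at 17.9 RPKM in TKO EpiLCs and 106 in PclWT EpiLCs. In QKO EpiLCs the sum was 157 ± 4.64, a difference from PclWT EpiLCs within the SD of the latter. That SD rests mostly on PclWT EpiLC replicate 1, which held 137 RPKM of Klf2 against 90.6 and 89.5 in replicates 2 and 3. PclWT EpiLC replicates 2 and 3 each summed to less than any QKO EpiLC library. These sums were not tested.

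Which of these genes change as ESCs become EpiLCs was tested with edgeR's quasi-likelihood test, with Benjamini-Hochberg adjustment over all genes. A gene is said to rise or fall where its adjusted p was under 0.05, and changes are given as log2 fold change ± SE. In the 12 J2WT and PclWT libraries, with line in the model, all 6 genes fell, 4 of them by over 2-fold, where 25.2% of 13523 genes fell and 9.1% fell by over 2-fold. The median change of the 6 was -1.86 on the log2 scale, and that of all genes tested was 0.01.

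Klf4 fell most, by 59.1-fold (-5.88 ± 0.18, adjusted p = 3.13e-10), and 21 of 13523 genes had a lower value. It was read at 376, 373 and 378 CPM in J2WT ESCs and 4.9, 4.0 and 5.7 in J2WT EpiLCs. The PclWT libraries held 298, 350.1 and 347 CPM in ESCs and 5.3, 8.9 and 7.3 in EpiLCs. No library overlapped between stages in either line.

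Klf5 fell by 6.59-fold (-2.72 ± 0.12, adjusted p = 5.21e-09). Its level was 352, 342 and 348 CPM in J2WT ESCs against 65.4, 65.3 and 65.1 in EpiLCs, and 157, 148 and 151 CPM in PclWT ESCs against 17.5, 17.2 and 18.8 in EpiLCs. PclWT cells thus held less Klf5 at each stage. Klf2 fell by 5.22-fold (-2.38 ± 0.37, adjusted p = 0.000175), unevenly between the lines. In J2WT it went from 392, 412 and 416 CPM to 35.8, 34.8 and 35.8, and in PclWT from 439, 429 and 423 CPM to 229, 148 and 145. The value of 229 CPM belongs to the PclWT EpiLC library that stands apart, and without it the pooled change of Klf2 was -2.59 (adjusted p = 5.77e-05).

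Klf3, the repressor, fell by 2.52-fold (-1.34 ± 0.23, adjusted p = 0.000443). Its level in J2WT was 177, 175 and 176 CPM in ESCs and 41.2, 40.2 and 42.3 in EpiLCs, and in PclWT 96.0, 103 and 91.9 CPM in ESCs and 68.5, 57.1 and 66.0 in EpiLCs. Klf6 and Klf9 fell by much less, 1.30-fold (-0.37 ± 0.07, adjusted p = 0.00109) and 1.25-fold (-0.32 ± 0.05, adjusted p = 0.000312). Klf6 stood at 70.9 to 76.0 CPM in J2WT ESCs and 55.2 to 60.2 in EpiLCs, and at 25.9 to 30.0 CPM in PclWT ESCs and 19.0 to 22.2 in EpiLCs. Klf9 stood at 244 to 251 CPM in J2WT ESCs and 190.3 to 196 in EpiLCs, and at 180.2 to 183 CPM in PclWT ESCs and 144 to 148 in EpiLCs.

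**Figure D3:**
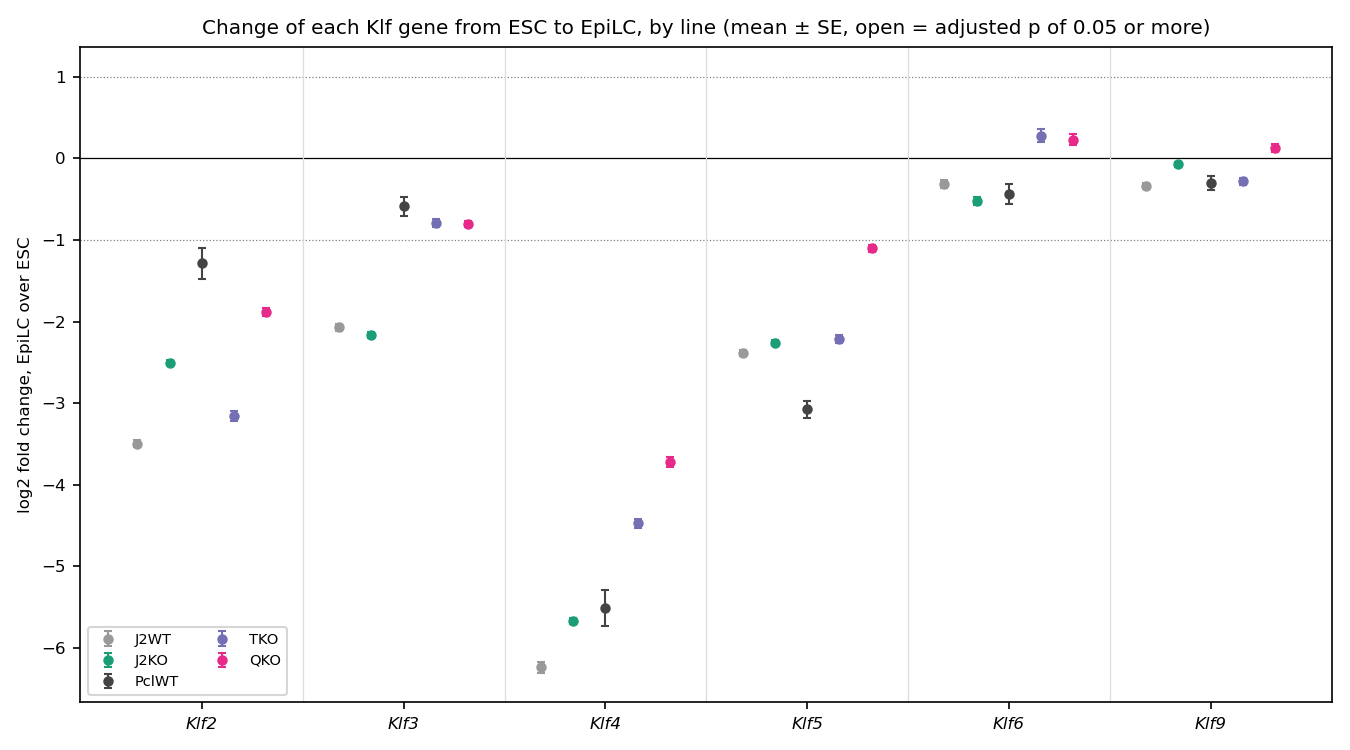
Change of each Klf gene from ESC to EpiLC in the 5 lines, as log2 fold change ± SE from edgeR. Filled points have an adjusted p under 0.05, which all 30 do here, and dotted lines mark a 2-fold change. Klf4 falls in every line, from -6.24 in J2WT to -3.72 in QKO, and Klf6 rises in TKO and QKO alone.

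Within J2WT alone, all 6 genes fell and 4 fell by over 2-fold, with 41.6% and 14.8% of all genes doing so. Klf2 fell by 11.3-fold (-3.5 ± 0.04) and Klf3 by 4.20-fold (-2.07 ± 0.04). In PclWT alone, all 6 fell and 3 fell by over 2-fold, against 13.4% and 6.2% of all genes, and the changes of Klf2 and Klf3 were smaller, 2.44-fold (-1.29 ± 0.19, adjusted p = 0.00294) and 1.5-fold (-0.59 ± 0.11, adjusted p = 0.00887). Klf6 (adjusted p = 0.0345) and Klf9 (adjusted p = 0.0413) were near the threshold in PclWT. Leaving out any 1 library other than EpiLC replicate 1 raised these to between 0.0763 and 0.139 for Klf6 and between 0.119 and 0.155 for Klf9, and without ESC replicate 2 that of Klf3 became 0.0516. Without EpiLC replicate 1 all 6 genes fell, Klf9 with an adjusted p of 0.000157. With the replicate number as a block, which the PclWT libraries allow, Klf9 did not pass (adjusted p = 0.0889).

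The lines differed in how far Klf2, Klf3, Klf4 and Klf5 moved, by the interaction of stage and line. Compared with J2WT, the log2 stage change in PclWT was higher by 2.22 ± 0.21 for Klf2 (adjusted p = 8.65e-06), by 1.5 ± 0.11 for Klf3 (1.68e-06) and by 0.74 ± 0.22 for Klf4 (0.0177), and lower for Klf5, at -0.67 ± 0.09 (9.19e-05). The test called 42.9% of all genes. For Klf6 (-0.11 ± 0.13) and Klf9 (0.05 ± 0.08) it did not pass. The call on Klf4 was lost without J2WT EpiLC replicate 2 (adjusted p = 0.0534) or without PclWT EpiLC replicate 2 (0.0523).

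Set side by side within a stage, PclWT ESCs held less Klf6 than J2WT ESCs (2.51-fold lower, -1.33 ± 0.07), less Klf5 (2.16-fold lower, -1.11 ± 0.05), less Klf3 (-0.78 ± 0.05) and less Klf9 (-0.37 ± 0.04), and slightly more Klf2 (0.16 ± 0.05, adjusted p = 0.0046). Of all genes, 76.7% passed. Klf4 did not pass (-0.10 ± 0.05, adjusted p = 0.108). In EpiLCs, where 47.4% of all genes passed, Klf2 was 5.15-fold higher in PclWT (2.36 ± 0.21, adjusted p = 0.000235) and Klf3 1.62-fold higher, while Klf5 was 3.5-fold lower (-1.81 ± 0.10) and Klf6 2.75-fold lower (-1.46 ± 0.11). Klf9 was lower by 1.27-fold (adjusted p = 0.0155), and this call was lost on leaving out any 1 library but PclWT EpiLC replicate 1 (adjusted p 0.0532 to 0.079). Klf4 did not pass (0.61 ± 0.23, adjusted p = 0.0637). Without PclWT EpiLC replicate 1, Klf2 was 4.32-fold higher and Klf4 passed (0.79, adjusted p = 5e-05). Line, laboratory and sequencing depth cannot be told apart here. The summed formative level was lower in PclWT than in J2WT EpiLCs but alike in ESCs (423 to 447 against 424 to 437 CPM). The summed naive network level was lower in PclWT in ESCs and also in EpiLCs (321 to 388 against 649 to 659 CPM). The part of these marker levels in the Klf differences was not tested.

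The WT line of the Pcgf set, which has no ESC libraries, lay near J2WT EpiLCs in level. Klf2 was at 30.9, 30.3 and 29.5 CPM in WT EpiLCs, Klf4 at 4.9, 5.2 and 4.7, and Klf5 at 60.9, 65.2 and 65.6. Klf2 in PclWT EpiLCs, at 145 CPM or more in each library, therefore stood above both other WT lines.

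Most of the Klf genes were higher in cells without JARID2. In J2KO ESCs 5 genes rose and Klf6 fell, none by over 2-fold, where 35.3% of all genes rose and 35.6% fell. Klf4 went from 376, 373 and 378 CPM in J2WT to 539, 537 and 539 in J2KO (1.43-fold, 0.51 ± 0.03, adjusted p = 4.36e-12). Klf2 went from at most 416 CPM to 536, 533 and 539 (1.31-fold, 0.39 ± 0.03). Klf3 (0.28 ± 0.03), Klf9 (0.28 ± 0.03) and Klf5 (0.18 ± 0.03) rose by less. Klf6 fell by 1.40-fold (-0.49 ± 0.05, adjusted p = 1.02e-08), to 55.2, 50.4 and 52.8 CPM.

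In J2KO EpiLCs the same 5 genes rose and Klf6 fell, where 33.7% of all genes rose and 31.9% fell, and Klf2 and Klf4 rose by over 2-fold, as 6.09% of all genes did. Klf2 stood at 93.2, 87.8 and 98.0 CPM against 35.8, 34.8 and 35.8 in J2WT EpiLCs (2.63-fold, 1.40 ± 0.05, adjusted p = 1.66e-19). Klf4 stood at 10.1, 10.6 and 10.5 CPM against 4.9, 4.0 and 5.7 (2.14-fold, 1.10 ± 0.12, adjusted p = 5e-09), and without J2WT EpiLC replicate 2 its log2 change was 0.97, under 2-fold. Every J2KO EpiLC library nevertheless held less of both genes than any ESC library. Klf9 rose by 1.47-fold (0.56 ± 0.03), Klf5 by 1.25-fold (0.32 ± 0.04) and Klf3 by 1.15-fold (0.20 ± 0.05). Klf6 fell by 1.60-fold (-0.68 ± 0.05, adjusted p = 8.98e-12), to 37.6, 33.5 and 37.8 CPM. The median change of the 6 genes was 0.44, and of all genes 0.00. Markers of primitive endoderm moved in J2KO too, since the summed level of 10 such genes was 38.7 to 41.1 CPM in J2KO EpiLCs against 72.4 to 78.1 in J2WT EpiLCs, where 6 of the 7 tested fell and 1 rose. In ESCs the sum was higher in J2KO, at 335 to 346 CPM against 248 to 276, but the list was split. Of the 6 tested there, 3 rose, 1 of them by over 2-fold, and 2 fell, both by over 2-fold. The part of these markers in the Klf levels was not tested.

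**Figure D4:**
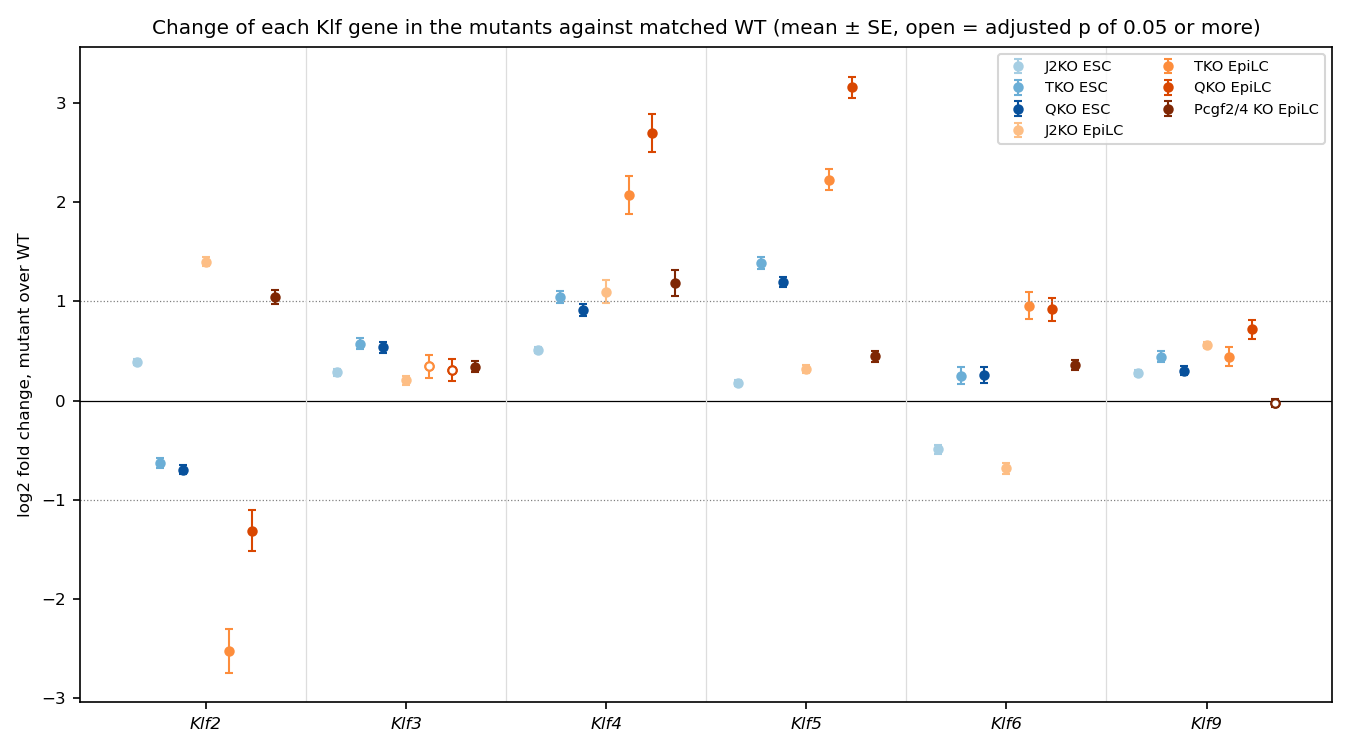
Change of each Klf gene in the mutants against their matched WT line at the same stage, as log2 fold change ± SE from edgeR, blue for ESCs and orange to brown for EpiLCs. Open points did not pass an adjusted p of 0.05. Klf2 is below 0 in TKO and QKO and above 0 in J2KO and Pcgf2/4 KO, while Klf4 and Klf5 are above 0 in all 7 comparisons.

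In cells without the Polycomb-like proteins, Klf2 was lower and Klf4 and Klf5 were higher. TKO and QKO share their PclWT controls. In TKO ESCs 5 genes rose and Klf2 fell, where 33.1% of all genes rose and 33.7% fell, and Klf4 and Klf5 rose by over 2-fold, as 6.54% of all genes did. Klf5 reached 438, 399 and 388 CPM against 157, 148 and 151 in PclWT ESCs (2.62-fold, 1.39 ± 0.06, adjusted p = 2.4e-13). Klf4 reached 725, 704 and 674 CPM against 298, 350.1 and 347 (2.06-fold, 1.04 ± 0.06, adjusted p = 2.28e-11), and without PclWT ESC replicate 1 its log2 change was 0.97, under 2-fold. Klf2 dropped to 305, 279 and 273 CPM from 439, 429 and 423 (1.55-fold lower, -0.63 ± 0.05, adjusted p = 5.67e-09). Klf3 (0.57 ± 0.06), Klf9 (0.44 ± 0.05) and Klf6 (0.25 ± 0.08) also rose. The call on Klf6 (adjusted p = 0.0134) was lost without PclWT ESC replicate 2 (0.0903), PclWT ESC replicate 3 (0.0505) or TKO ESC replicate 2 (0.0732).

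QKO ESCs, in which 33.9% of all genes rose and 35.4% fell, showed the same signs. Klf5 stood at 345, 354 and 361 CPM (2.28-fold, 1.19 ± 0.05), Klf4 at 673, 607 and 621 (1.88-fold, 0.91 ± 0.06) and Klf2 at 272, 271 and 267 (1.62-fold lower, -0.70 ± 0.05, adjusted p = 5.68e-10). Only Klf5 passed 2-fold, against 5.8% of all genes that rose so far. Klf3 (0.53 ± 0.05), Klf9 (0.30 ± 0.05) and Klf6 (0.26 ± 0.08, adjusted p = 0.00909) rose, and without PclWT ESC replicate 2 the adjusted p of Klf6 became 0.0549. Set against J2WT ESCs, Klf4 was still higher and Klf2 still lower in every TKO and QKO ESC library. Other orders turned with the WT line. Klf3 and Klf6 of TKO and QKO lay below every J2WT library, at most 152 and 36.6 CPM against at least 175 and 70.9. Klf9 of QKO, at 220 to 230 CPM, lay below the 244 to 251 of J2WT, which TKO overlapped. Klf5 of QKO overlapped the 342 to 352 CPM of J2WT, and that of TKO lay above them.

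In TKO EpiLCs 4 genes rose and Klf2 fell, where 16.2% of all genes rose and 17.3% fell. Klf4 was at 28.3, 31.4 and 32.9 CPM against 5.3, 8.9 and 7.3 in PclWT EpiLCs (4.20-fold, 2.07 ± 0.19, adjusted p = 0.000647), and Klf5 at 84.2, 86.2 and 87.0 against 17.5, 17.2 and 18.8 (4.68-fold, 2.23 ± 0.11, adjusted p = 0.000109). Both rose by over 2-fold, as 6.91% of all genes did. The Klf4 libraries of TKO also lay above every J2WT and WT EpiLC library, and those of Klf5 above every one of the 9 WT EpiLC libraries, so the order is the same with any of the WT lines.

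For Klf2 the order depended on the WT line. At 28.9, 32.9 and 32.2 CPM in TKO EpiLCs against 229, 148 and 145 in PclWT EpiLCs, it was 5.74-fold lower (-2.52 ± 0.22, adjusted p = 0.000548), a fall over 2-fold that 7.16% of all genes shared. Without PclWT EpiLC replicate 1 the change was -2.26 (adjusted p = 9.92e-18). The TKO libraries nevertheless lay in the range of J2WT and WT EpiLCs, 29.5 to 35.8 CPM, apart from 1 TKO library just below it. Klf6 rose by 1.94-fold (0.96 ± 0.14, adjusted p = 0.00271) and Klf9 by 1.36-fold (0.44 ± 0.10, adjusted p = 0.0135). Klf6 also turned with the WT line, as the TKO libraries held 36.9 to 45.5 CPM, above the 19.0 to 22.2 of PclWT EpiLCs but below every J2WT (55.2 to 60.2) and WT (54.5 to 56.1) EpiLC library. The rise of Klf6 was 2.03-fold, past 2-fold, without PclWT EpiLC replicate 1. Klf9 stood at 195 to 213 CPM in TKO EpiLCs, where it overlapped J2WT EpiLCs. The call on Klf9 was lost without PclWT EpiLC replicate 2 or any 1 TKO EpiLC library (adjusted p 0.0562 to 0.0675). Klf3 stood at 80.6 to 86.3 CPM against 57.1 to 68.5 and did not pass (0.35 ± 0.12, adjusted p = 0.061), but passed without PclWT EpiLC replicate 1 (0.41, adjusted p = 7.31e-06).

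In QKO EpiLCs 4 genes rose and Klf2 fell, where 15.8% of all genes rose and 17.1% fell. Klf5 reached 159.9, 161 and 169.6 CPM (8.90-fold, 3.15 ± 0.11, adjusted p = 5.29e-05) and Klf4 44.1, 52.2 and 47.1 CPM (6.48-fold, 2.7 ± 0.19, adjusted p = 0.000277), the highest levels of both genes in any EpiLC group. Of all genes, 6.12% rose by over 2-fold. Klf2, at 78.7, 68.0 and 71.0 CPM, was 2.48-fold lower than in PclWT EpiLCs (-1.31 ± 0.21, adjusted p = 0.00417), a fall over 2-fold that 7.58% of all genes shared, yet every QKO library lay above all J2WT and WT EpiLC libraries. Without PclWT EpiLC replicate 1 it was lower by -1.04 on the log2 scale (adjusted p = 4.18e-14). Klf6 (1.89-fold, 0.92 ± 0.12, adjusted p = 0.00193) and Klf9 (1.64-fold, 0.72 ± 0.09, adjusted p = 0.00208) rose. The QKO libraries held 38.4 to 41.2 CPM of Klf6, again below every J2WT and WT EpiLC library, and 245 to 248 CPM of Klf9, above every WT EpiLC library of the 3 lines. That rise of Klf6 was 2.01-fold, past 2-fold, without PclWT EpiLC replicate 1. Klf3, at 79.9 to 82.4 CPM, did not pass (0.31 ± 0.11, adjusted p = 0.0815), and passed without PclWT EpiLC replicate 1 (0.38, adjusted p = 9.43e-06).

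Markers of primitive endoderm moved with TKO and QKO as well. The summed level of the 10 genes, among them Gata4, Gata6, Sox17 and Pdgfra, was 262 to 291 CPM in TKO EpiLCs and 165 to 174 in QKO EpiLCs against 42.7 to 80.7 in PclWT EpiLCs, and 182 to 203 in PclWT ESCs. In TKO EpiLCs 8 of the 8 genes tested rose, and in QKO EpiLCs 5 of 7. No gene of the list was at 0 throughout a group. The part of such cells in the levels of the Klf genes was not tested. Summed trophoblast markers were 54.9 to 57.4 CPM in TKO, 45.6 to 48.3 in QKO and 49.1 to 65.3 in PclWT EpiLCs, and summed fibroblast markers at most 21.2 CPM in these 3 groups, with Col3a1, Postn and Lum at 0 in every library.

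Compared with TKO, QKO by label adds lack of JARID2 to lack of the Polycomb-like proteins, each genotype being 1 line. In ESCs 21.9% of all genes were lower in QKO, and Klf5 (-0.21 ± 0.05, adjusted p = 0.00157), Klf9 (-0.16 ± 0.05, 0.0104) and Klf4 (-0.15 ± 0.05, 0.016) were slightly lower as well. The call on Klf4 was lost without TKO ESC replicate 2 (0.0581), QKO ESC replicate 2 (0.099) or QKO ESC replicate 3 (0.0732), and that on Klf9 without QKO ESC replicate 3 (0.055). Klf2, Klf3 and Klf6 did not pass. In EpiLCs 4 of the 6 were higher in QKO, as were 21.7% of all genes, and Klf2 was 2.27-fold higher (1.18 ± 0.07, adjusted p = 4.54e-12), an increase over 2-fold that 1.46% of all genes showed. Klf5 was 1.86-fold higher (0.90 ± 0.05), Klf4 1.52-fold higher (0.60 ± 0.08) and Klf9 1.19-fold higher (0.25 ± 0.05, adjusted p = 0.00013). Klf3 (-0.07 ± 0.04) and Klf6 (-0.06 ± 0.07) did not pass, and their libraries overlapped. Markers moved in this EpiLC comparison as well. Of the 12 naive network genes, 10 were higher in QKO and 2 lower. All 8 primitive endoderm genes tested were lower, where 3039 of 12762 genes were lower. The part of these markers in the Klf levels was not tested.

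In Pcgf2/4 KO EpiLCs 5 of the 6 genes rose, where 28.4% of all genes rose. Klf4 was at 11.4, 11.1 and 10.9 CPM against 4.9, 5.2 and 4.7 in WT EpiLCs (2.28-fold, 1.19 ± 0.13, adjusted p = 1.02e-08). Klf2 was at 65.9, 65.7 and 53.8 CPM against 30.9, 30.3 and 29.5 (2.06-fold, 1.04 ± 0.07, adjusted p = 2.1e-13). These 2 rose by over 2-fold, as 1.91% of all genes did. Klf5 (0.44 ± 0.05), Klf6 (0.36 ± 0.05) and Klf3 (0.34 ± 0.05) rose by less, and Klf9, at 178 to 189.9 CPM against 183 to 194, did not pass (-0.02 ± 0.04, adjusted p = 0.607). The median change was 0.40, and that of all genes 0.00. Klf6 was thus higher in Pcgf2/4 KO EpiLCs and lower in J2KO EpiLCs, each against its own WT line, a contrast that was not itself tested. In these EpiLCs, primitive endoderm markers moved in the same directions. They rose in Pcgf2/4 KO EpiLCs in 6 of the 6 genes tested, with a median summed level of 75.8 CPM against 36.9 in WT EpiLCs and no overlap of libraries. In J2KO ESCs Klf6 fell, and the summed marker level was higher than in J2WT ESCs (335 to 346 against 248 to 276 CPM). The marker list was split there, with 3 of the 6 tested rising and 2 falling. In TKO and QKO EpiLCs, Klf6 and the summed marker level were both higher than in PclWT EpiLCs, though Klf6 lay below every J2WT EpiLC library. The part of these markers in the levels of the Klf genes was not tested.

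Klf2, Klf3, Klf4 and Klf5 also fell between stages in every mutant line. In J2KO all 6 genes fell, 4 by over 2-fold, with 42.1% and 12.0% of all genes doing so. Klf4 fell by 51.0-fold (-5.67 ± 0.04), Klf2 by 5.68-fold, Klf5 by 4.80-fold and Klf3 by 4.49-fold. Klf9 changed by only -0.07 ± 0.03 (adjusted p = 0.0154), and that call was lost without J2KO ESC replicate 2 (0.0513), J2KO EpiLC replicate 1 (0.114) or J2KO EpiLC replicate 3 (0.0541). In TKO 5 genes fell, against 36.6% of all genes, and Klf6 rose (37.2% of all genes; 0.28 ± 0.08, adjusted p = 0.00515). Klf4 fell by 22.2-fold (-4.47 ± 0.06), Klf2 by 8.91-fold (-3.16 ± 0.06) and Klf5 by 4.64-fold (-2.21 ± 0.05), and these 3 passed 2-fold, against 8.61% of all genes.

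In QKO cells 4 genes fell, as did 36.5% of all genes. Klf4 fell by 13.2-fold (-3.72 ± 0.06), Klf2 by 3.70-fold (-1.89 ± 0.05) and Klf5 by 2.15-fold (-1.10 ± 0.05), where 7.02% of all genes fell by over 2-fold, and Klf3 fell by 1.75-fold (-0.81 ± 0.04). Klf6 (0.23 ± 0.07, adjusted p = 0.00481) and Klf9 (0.13 ± 0.04, adjusted p = 0.0138) rose slightly, as 36.9% of all genes rose, and the call on Klf9 was lost without QKO ESC replicate 3 (adjusted p = 0.095).

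Whether a mutation altered the stage change was tested by interaction. In J2KO, where 54.0% of all genes passed, the stage change was higher than in J2WT by 0.99 ± 0.06 for Klf2 (adjusted p = 5.18e-15), 0.57 ± 0.10 for Klf4 (3.28e-05) and 0.27 ± 0.04 for Klf9 (4.23e-06). Smaller differences for Klf5 (0.13 ± 0.05, 0.0253) and Klf6 (-0.20 ± 0.07, 0.0201) were each lost when single libraries were left out, Klf5 without J2WT EpiLC replicate 3, J2KO ESC replicate 1 or J2KO EpiLC replicate 3 (0.0531 to 0.118) and Klf6 without J2WT ESC replicate 2, J2WT EpiLC replicates 1 or 2, J2KO ESC replicate 1 or J2KO EpiLC replicate 2 (0.052 to 0.0959). In TKO, where 15.5% passed, the change was lower than in PclWT for Klf2, at -1.90 ± 0.23 (adjusted p = 0.000233), and higher for Klf4 by 1.02 ± 0.19 (0.00343), Klf5 by 0.83 ± 0.10 (0.000312) and Klf6 by 0.69 ± 0.16 (0.0111). For Klf2 the order turned with the WT line, as TKO (-3.16) and QKO (-1.89) fell further than PclWT (-1.29) but less than J2WT (-3.50). For Klf5, TKO (-2.21) lay near J2WT (-2.39), while PclWT fell further (-3.08). Differences of TKO and QKO from J2WT were not tested.

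In QKO, where 15.8% passed, the stage change was higher than in PclWT for Klf5 by 1.97 ± 0.10 (adjusted p = 4.84e-07), for Klf4 by 1.79 ± 0.20 (0.000115), for Klf6 by 0.66 ± 0.14 (0.00707) and for Klf9 by 0.43 ± 0.09 (0.00647). Klf2 did not pass (-0.61 ± 0.22, adjusted p = 0.0829), but passed without PclWT EpiLC replicate 1 (-0.35, adjusted p = 0.000875), replicate 2 (-0.72, 0.0421) or replicate 3 (-0.73, 0.0327). Klf3 passed in none of the 3 mutants.

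Of the 11 other Klf genes, 9 could be tested between stages in the WT lines, and 3 rose and 2 fell, shares near those of all genes, of which 26.4% rose and 25.2% fell. Klf8 fell by -2.50 ± 0.15 on the log2 scale (adjusted p = 7.73e-08), from 94.2 ± 8.88 to 14.3 ± 0.538 CPM in J2WT and from 81.7 ± 5.94 to 16.4 ± 5.55 in PclWT. Klf15 fell by -2.19 ± 0.31 (adjusted p = 8.96e-05), from 54.9 ± 1.02 to 6.90 ± 0.293 CPM in J2WT, but stood at only 4.69 ± 0.186 in PclWT ESCs. Klf17 rose by 2.51 ± 0.35 (adjusted p = 8.43e-05) from a low level, and reached 5.58 ± 2.01 CPM in PclWT EpiLCs and 0.783 ± 0.384 in J2WT EpiLCs.

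Of the 9 related Sp genes, 5 were tested and 1 passed in each direction, also near the shares of all genes. Sp4 rose by 1.03 ± 0.18 (adjusted p = 0.000395). Sp5, a target of Wnt signalling, fell (adjusted p = 0.00167), from 3136 counts over the J2WT ESC libraries to 2 over those of J2WT EpiLCs, and from 123 to 37 counts in PclWT.

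The wider pathway genes are read against the 26.4% of all genes that rose and the 25.2% that fell. Of 12 naive network genes, 9 fell and 1 rose in the WT lines, with a median of -3.20 on the log2 scale. Of 10 genes of the LIF and STAT3 pathway, such as Socs3, Stat3 and Lifr, 8 fell and 0 rose (median -0.93). Among 10 genes that report ERK signalling, such as Dusp6 and Spry4, 6 rose and 1 fell (median 0.90), and of 10 formative genes 9 rose (median 3.03). The 6 Klf genes had a median of -1.86.

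In the mutant EpiLCs, 9 of the 12 naive network genes rose and 2 fell in TKO (median 1.19), where 16.2% of all genes rose and 17.3% fell. In QKO 9 rose and 1 fell (2.55), against 15.8% and 17.1% of all genes. In J2KO 7 rose and 1 fell (0.33), against 33.7% and 31.9%, and in Pcgf2/4 KO 9 rose and 2 fell (0.82), against 28.4% and 28.3%. Of the 10 genes of the LIF and STAT3 pathway, 3 rose and 1 fell in both TKO (median -0.14) and QKO (0.08). The 3 rises in 10 lie above the share of all genes that rose in each, and the 1 fall in 10 lies below the share that fell. In J2KO EpiLCs 4 of these 10 genes rose and 4 fell (median -0.04), and in Pcgf2/4 KO EpiLCs 4 rose and 2 fell (0.14), to be read against the shares of all genes given above.

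By likeness of their mean log2 CPM over the 12 groups, among 12457 protein-coding genes, Klf4 was nearest to Tbx3, a T-box factor of the naive network (Pearson r = 0.984), Klf2 to Ubac2 (0.981), Klf5 to Epha4 (0.978), Klf3 to Ncoa6 (0.970), Klf6 to Ppfibp2 (0.957) and Klf9 to Alg11 (0.948). The next in order were Cggbp1 and Zfp976 for Klf4, Grn and Serpinb1a for Klf2, Hnrnpul2 and Dsg2 for Klf5, Eya1 and Krit1 for Klf3, Eif3h and Vps8 for Klf6, and Bin3 and Tmem253 for Klf9. These values describe 12 points that share lines and controls and fall into ESC and EpiLC groups.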

How the data were processed

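The authors prepared unstranded poly(A) RNA libraries (NEBNext Ultra), aligned reads to the mouse GRCm38 transcriptome with STAR 2.7.1 and deposited 1 file per library of raw, unnormalized read counts by gene. FastQC and DESeq2 are named in the submitters' processing notes. The column of counts without regard to strand was used. Between 23.2% and 30.2% of reads were not assigned to a gene, for any reason, and were left out. Symbols, positions and exon lengths came from GENCODE M21. Groups were taken from the sample titles. CPM was scaled by TMM over 36 libraries, and RPKM used the union of exons.

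Tests used edgeR 4.0.16 in R 4.3.3 (quasi-likelihood, TMM) fitted to the libraries of each comparison, for genes whose mean normalized count reached 15. SEs of log2 fold changes follow from the F statistic. Alternatives were RLE normalization, DESeq2 1.42.0, no count filter, a minimum of 50, all libraries of the line family fitted together, the replicate number as a block, protein-coding genes alone, and leaving out single libraries. The steps were tested on simulated data. Numbers were taken to pair samples where all 3 same-numbered pairs deviated together at a correlation over 0.1, which held only for PclWT ESCs and EpiLCs (0.451, 0.241 and 0.205), as a hint from the data, since no source says what the numbers mark. The hint is weak, as differently numbered libraries of these groups reached 0.254, above the 0.241 and 0.205 of same-numbered pairs. Depth varied 2.66-fold between libraries, and SEs cover it through the fitted dispersion only among libraries of a group. J2WT and J2KO libraries held 15924615 to 18026492 counts, and PclWT, TKO and QKO libraries 6784578 to 11253158. Depth is thus aligned with the set of lines, and shares of genes called in J2WT or J2KO were read at greater depth than those in PclWT, TKO or QKO. Shares also differed within the PclWT set. Of all genes, 33.1% rose in TKO ESCs and 16.2% in TKO EpiLCs, whose control group holds PclWT EpiLC replicate 1. The part of that library in the shares was not tested. Figures used Python 3.11.15 with matplotlib 3.10.9.

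Named genes are the 6 members, the knocked-out genes, other Klf and Sp genes that passed with over 2-fold between stages in the WT lines, and the 3 most alike genes of each member. Members and lists were chosen with earlier results of these data known.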

Additional observations from a re-analysis of the deposited data

Results flagged for a closer look

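Interactions mark results in which an effect differed between lines or genotypes by a test of the difference itself, with an adjusted p under 0.05 (edgeR). The stage change of Klf2, Klf3, Klf4 and Klf5 in PclWT differed from that in J2WT by 2.22, 1.5, 0.74 and -0.67 on the log2 scale. Against J2WT, the stage change in J2KO differed by 0.99 for Klf2, 0.57 for Klf4, 0.13 for Klf5, -0.20 for Klf6 and 0.27 for Klf9. Against PclWT, that in TKO differed by -1.90 for Klf2, 1.02 for Klf4, 0.83 for Klf5 and 0.69 for Klf6, and that in QKO by 1.79 for Klf4, 1.97 for Klf5, 0.66 for Klf6 and 0.43 for Klf9. PclWT is the baseline of the last 8 values. The sign for Klf2 in TKO turns with the WT line, as its stage change was -1.29 in PclWT, -3.16 in TKO and -3.50 in J2WT. Without PclWT EpiLC replicate 1 the TKO values were -1.63, 0.85, 0.83 and 0.77 and the QKO values 1.62, 1.96, 0.74 and 0.45, each still with an adjusted p under 0.05.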

How the results depend on the processing

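Over the 6 genes and 21 comparisons, 1699 of 1782 alternative values kept the direction and the side of the threshold, 60 were no longer past it, 13 were newly past it and 10 reversed. The reversed values were near 0 and none passed. Klf6 in QKO over TKO ran from -0.057 to 0.051 in ESCs and from -0.13 to 0.020 in EpiLCs with single libraries left out. Klf9 in the interaction of stage and TKO was 0.0060 with RLE, 0.0049 with DESeq2 and 0.012 with a minimum of 50, and ran from -0.040 to 0.021 with single libraries left out. With all libraries of the line family fitted, 1 member passed in QKO over TKO ESCs, against 3. In the interaction of stage and J2KO, 1 member was over 2-fold with RLE and 1 with DESeq2, against 0. With single libraries left out, members past the threshold were 3 to 6 in PclWT between stages, 1 to 3 in QKO over TKO ESCs and 3 to 5 in the interaction with J2KO. Members over 2-fold were 1 to 2 in J2KO EpiLCs, 1 to 2 in TKO ESCs, 0 to 1 in the interaction with J2KO and 1 to 2 in that with TKO. Without PclWT EpiLC replicate 1 they were 4 in TKO EpiLCs and 4 in QKO EpiLCs, against 3 in each, Klf6 being the one added. Klf2 in the interaction with J2KO (0.99) and Klf4 in that with TKO (1.02) lie at the 2-fold line. The causes were not tested.

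Small changes lost their call under other settings, namely Klf6 and Klf9 in PclWT between stages (no filter; Klf9 also at a minimum of 50), Klf9 in J2KO between stages (RLE, DESeq2, minimum of 50), Klf6 and Klf9 in QKO between stages and Klf4 and Klf9 in QKO over TKO ESCs (line family), Klf2 between lines in ESCs (no filter, line family), and, among interactions, Klf5 with J2KO (no filter), Klf6 with J2KO (DESeq2) and Klf9 with QKO (no filter). Calls were gained for Klf3 in TKO EpiLCs (DESeq2, line family) and QKO EpiLCs (line family), for Klf4 between lines in ESCs (no filter) and EpiLCs (line family), and for Klf2 in the interaction with QKO (DESeq2, no filter).

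The replicate block ended the calls on Klf9 in PclWT between stages, in TKO EpiLCs (adjusted p = 0.067) and between lines in EpiLCs (0.0737), and changed no other call on the 6 genes. In the last comparisons the samples share only a number. Over all genes, calls over 2-fold numbered 1.19 to 1.94 times as many with no count filter, and the main counts were 1.41 to 1.99 times those with a minimum of 50. Per comparison these counts were 4198, 6836 and 2922 in J2WT between stages, and 744, 1446 and 376 in Pcgf2/4 KO EpiLCs (reported, no filter, minimum of 50). With no filter the median of all genes between lines in EpiLCs shifted by -0.13. A total of 3 libraries per group, with depth down to 6784578 counts, limits what can be seen for small changes of Klf6 and Klf9.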
